A study of Homo sapiens with 3 samples.

Results

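The regions described here were the single H3K4me1 peaks of 10 kb or more in ALL-SIL, an established T-ALL line (leukaemia of immature T cells) known to carry a TLX1 rearrangement. They were selected on the length column of the authors' peak table alone, as called and without joining neighbouring peaks, on the main chromosomes. There were 1043 of them among 62087 H3K4me1 peaks, 62019 of which lay on the main chromosomes. Chromatin immunoprecipitation with sequencing (ChIP-seq) had been carried out for H3K4me1 and for H3K4me3, beside input DNA, on untreated cells of this 1 line, with 1 library each. The filtered tags numbered 34813455 for H3K4me1, 30823016 for H3K4me3 and 18859011 for the input.

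H3K4me1 is the monomethyl form of lysine 4 of histone H3 and marks enhancers, both active and primed, and the flanks of promoters. H3K4me3, the trimethyl form, sits on the nucleosomes around active transcription start sites, where it takes the place of H3K4me1. Long unbroken stretches of H3K4me1 are known to run over enhancer clusters and over the first introns of genes that define a cell type. The cell type was checked with H3K4me3, which was called at 9 of 10 T-lineage marker genes, all but CD2, and at TLX1. It was called at none of 5 myeloid and none of 5 erythroid markers, at 1 of 5 B-lineage markers (PAX5, over 197 bp) and at 1 of 5 natural killer markers (EOMES, over 1507 bp).

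The sequences are examples of promoters that lay beside or under long peaks. They are the 250 bases before the RefSeq start of each gene in GRCh38.p14, written 5′ to 3′ on the gene's own strand, with every CpG in capitals. UBASH3B (chr11:122655472-122655721), TBC1D2B (chr15:78077712-78077961), MACROH2A1 (chr5:135399232-135399481) and BMF (chr15:40108880-40109129) had H3K4me3 at the start and a long peak that began within 5 kb downstream. DENND2D (chr1:111200647-111200896), IL10 (chr1:206772495-206772744) and CXCR6 (chr3:45943214-45943463) had starts inside a long peak and no H3K4me3 within 1 kb. UBASH3B, IL10 and CXCR6 were chosen after their values were seen. The first 4 sequences held 15, 22, 33 and 26 CpGs, and the last 3 held 4, 2 and 7. The rule for sequences gave 8 promoters, of which 4 are printed, and the other 4 held CpGs in the same window as follows. HEMK1 held 17 and FYCO1 20, both with H3K4me3 at the start and a long peak downstream. VDAC1 held 14 at a start that lay inside a long peak and had H3K4me3, and OSBPL3 held 3 at a start beside a long peak and without H3K4me3. Some starts, among them those of DENND2D, VDAC1 and OSBPL3, lay inside the gene span rather than at its end. H3K4me3 at other starts of these genes was not counted.
UBASH3B: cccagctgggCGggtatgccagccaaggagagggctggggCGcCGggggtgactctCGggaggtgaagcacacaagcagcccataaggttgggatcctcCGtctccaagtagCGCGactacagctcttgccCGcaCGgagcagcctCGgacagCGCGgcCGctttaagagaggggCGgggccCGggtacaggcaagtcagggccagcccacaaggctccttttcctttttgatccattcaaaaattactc
TBC1D2B: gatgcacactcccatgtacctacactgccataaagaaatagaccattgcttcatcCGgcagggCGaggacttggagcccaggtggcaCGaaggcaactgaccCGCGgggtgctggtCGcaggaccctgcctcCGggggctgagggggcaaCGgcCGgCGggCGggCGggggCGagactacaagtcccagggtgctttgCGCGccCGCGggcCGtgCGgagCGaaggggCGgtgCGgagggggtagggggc
MACROH2A1: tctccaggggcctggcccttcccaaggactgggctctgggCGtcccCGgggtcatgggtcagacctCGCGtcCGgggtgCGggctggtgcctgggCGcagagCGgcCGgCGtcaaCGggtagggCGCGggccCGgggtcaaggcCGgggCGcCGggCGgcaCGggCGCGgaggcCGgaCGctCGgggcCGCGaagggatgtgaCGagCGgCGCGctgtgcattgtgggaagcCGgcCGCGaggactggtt
BMF: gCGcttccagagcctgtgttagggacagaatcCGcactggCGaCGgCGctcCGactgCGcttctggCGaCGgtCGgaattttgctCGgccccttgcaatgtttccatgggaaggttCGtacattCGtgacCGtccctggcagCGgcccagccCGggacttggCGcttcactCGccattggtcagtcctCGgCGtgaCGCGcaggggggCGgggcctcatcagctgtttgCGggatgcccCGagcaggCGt
DENND2D: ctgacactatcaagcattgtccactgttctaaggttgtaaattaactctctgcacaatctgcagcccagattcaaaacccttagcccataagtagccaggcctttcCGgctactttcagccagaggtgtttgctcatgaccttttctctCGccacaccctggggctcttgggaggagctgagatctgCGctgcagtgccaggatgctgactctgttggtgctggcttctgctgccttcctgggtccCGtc
IL10: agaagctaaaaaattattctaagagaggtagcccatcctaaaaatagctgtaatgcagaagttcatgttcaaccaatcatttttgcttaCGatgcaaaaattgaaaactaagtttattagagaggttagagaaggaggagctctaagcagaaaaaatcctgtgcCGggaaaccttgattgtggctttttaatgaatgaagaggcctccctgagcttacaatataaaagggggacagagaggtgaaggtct
CXCR6: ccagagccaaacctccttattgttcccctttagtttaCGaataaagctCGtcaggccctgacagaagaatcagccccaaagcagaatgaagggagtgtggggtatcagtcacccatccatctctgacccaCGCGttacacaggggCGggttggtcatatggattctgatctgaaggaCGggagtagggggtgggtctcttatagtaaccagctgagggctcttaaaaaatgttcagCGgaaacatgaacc

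The long peaks made up 1.68% of H3K4me1 peaks and held 15.2% of their bases, 16.9 Mb in all. Their median length was 13462 bp (quartiles 11400 and 17384.5 bp). Among them 386 reached 15 kb, 183 reached 20 kb, 15 reached 50 kb and 1 passed 100 kb. The counts fell off smoothly through the 10 kb limit, as the plot of peak lengths shows. The 3 peaks just inside it lay in CD28 (10001 bp), the T cell costimulatory receptor, in CDK6 (10005 bp), a cell cycle kinase, and in TRAM2 (10011 bp). The 3 just outside were placed at GAB2 (9997 bp), WASF2 (9996 bp) and PRDM1 (9993 bp).

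**Figure D1:**
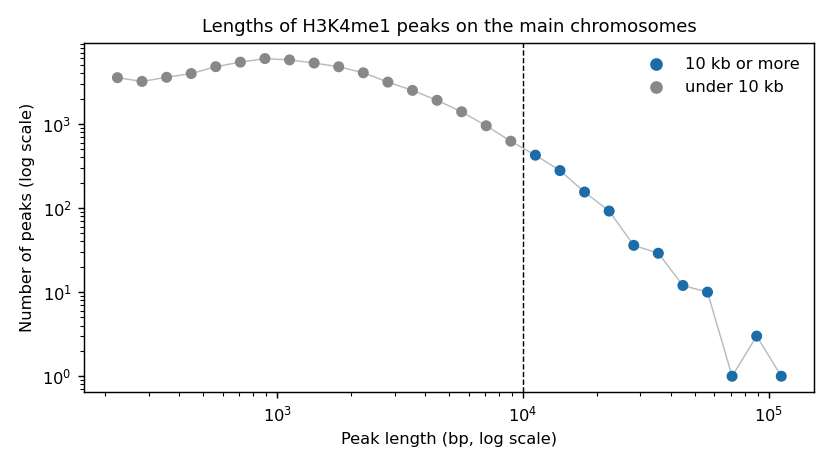
Number of H3K4me1 peaks on the main chromosomes by length, both axes on a log scale, with each point a bin of equal width in log length, blue for peaks of 10 kb or more and grey for shorter ones. The counts decline through the dashed 10 kb line without a gap, and 1 peak lies beyond 100 kb.

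The median height of the long peaks was slightly above that of shorter ones. The pileup, which is the authors' mean coverage of extended fragments over a peak, had a median of 7.0 in long peaks (range 4.24 to 17.15). It was 6.72 in peaks of 5 to 10 kb and 6.42 in peaks under 5 kb, whose highest value was 37.04 among 57992 peaks. The fold over the local background had medians of 2.57, 2.50 and 2.36 in the same classes. The long peaks of highest pileup lay in VPS13D (17.15), DOCK10 (16.53) and FOXO3 (16.23), a transcription factor of the PI3K pathway. The lowest lay in SH3KBP1 (4.24), RHOQ (4.36) and TNFRSF13B (4.43). Length, pileup and fold come from the same peak calling that chose the members, so these values only describe them.

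Of the 25 longest peaks, 20 were assigned to protein-coding genes. The longest ran for 107 kb at chr11:122658603-122766080 inside UBASH3B, which encodes a phosphatase that dampens T cell receptor signalling. It covered 67.7% of the gene span, had a pileup of 8.05 and a fold of 3.37, and met the H3K4me3 peak of the gene start at its left end. ZMIZ1, a cofactor of NOTCH1, carried 84.5 kb, GALNT2, which starts O-linked glycan chains, 80.4 kb, and FAM53B 75.7 kb. MSI2, an RNA-binding protein of blood stem cells and leukaemia, carried 2 peaks of 61.8 and 60.7 kb. CD247, the signalling zeta chain of the T cell receptor, carried 56.7 kb, and XYLT1, which starts glycosaminoglycan chains, 56.3 kb. The lymphoid transcription factors IKZF1 and ETS1 carried 55.2 and 54.9 kb. CCDC88C, which encodes a Dishevelled-binding protein, carried 55.0 kb, and CHST11, a chondroitin sulfotransferase, 54.1 kb. The remaining protein-coding genes ran from TNFAIP8 (47.9 kb), PRKCH (47.4 kb) and VDAC1 (46.9 kb) through ZNRF1 (45.4 kb), ERN1 (45.3 kb) and LZTFL1 (45.3 kb) to TBC1D2B and KLF13 (42.4 kb each).

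Some of the longest peaks lay mostly outside protein-coding genes. The third longest, 83.8 kb at chr15:70422539-70506333, covered the 2.02 kb of LINC02205 and met no H3K4me3 peak. The peak of 60.9 kb at chr14:98159900-98220806 began over LINC02295. BCL11B, the T-lineage zinc finger gene, lies farther along the same chromosome, at chr14:99169287-99272197, and a link between the 2 was not tested. The peak of 60.9 kb held 7402 bp of H3K4me3 in 3 peaks, more than any other long peak. The next by H3K4me3 inside were peaks at LOC124900931 (4651 bp), SLA (4510 bp), which encodes an adaptor that restrains T cell receptor signalling, NFILZ (4461 bp) and LINC01970 (4216 bp). Others with a midpoint between genes lay at LINC03090 (49.8 kb), at LOC105376137 (46.2 kb) and in the T cell receptor beta locus (54.1 kb).

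The midpoint of a long peak lay in a protein-coding gene in 69.5% of cases (725 of 1043, 95% interval 66.6 to 72.3%), against 60.3% over all H3K4me1 peaks. It was 62.6% for peaks of 5 to 10 kb and 60.0% for peaks under 5 kb. Another 7.67% of long peaks had the midpoint in an lncRNA gene only and 22.8% lay between genes, against 10.2% and 29.4% over all peaks. The share in genes was 76.2% among peaks of 15 kb or more. With 1 library per mark no difference could be tested against replicate error. All intervals here are exact Clopper-Pearson 95% intervals, and they cover counting error only.

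A protein-coding gene counted as covered where long peaks held at least 1 kb of its span. This held for 612 of 20032 genes, or 3.06%. The share was 0.720% of genes under 10 kb, 2.2% at 10 to 50 kb, 5.94% at 50 to 200 kb and 7.43% at 200 kb or more. Of the covered genes, 468 had 1 long peak, 99 had 2, 45 had at least 3 and 6 had at least 5. The median covered gene had 21.8% of its span under long peaks (quartiles 10.2 and 42.2%) and 42.7% under H3K4me1 peaks of any length. In 643 cases the peak lay wholly inside its gene.

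MSI2 held the most bases under long peaks of any gene, 309 kb in 11 peaks, or 69.3% of its span. HIVEP3, a zinc finger protein gene, held 172 kb in 8 peaks (32.5%), CHST11 156 kb in 7 peaks (51.1%) and GALNT2 145 kb in 6 peaks (64.8%). PRKCH, a protein kinase C gene, followed with 114 kb, then UBASH3B, and IGF1R, the insulin-like growth factor receptor gene, with 104 kb. FAM53B carried 102 kb in 3 peaks, which was 81.9% of its span. The lncRNA gene CASC15 had 99.6 kb, CCDC88C 98.6 kb, SEPTIN9 98.1 kb, CLEC16A 96.3 kb and the signalling adaptor gene GAB2 90.01 kb. ZMIZ1 with 84.5 kb and XYLT1 with 78.3 kb completed the first 15. Among the 1043 long peaks, 96 pairs followed each other with no shorter peak between, and in 81 of them the gap was under 5 kb. Between 2 long peaks, 25 gaps were under 1 kb, 33 of 1 to 2 kb, 23 of 2 to 5 kb and 14 of 5 to 10 kb. Between neighbouring H3K4me1 peaks that were both under 10 kb, the counts were 3276, 9852, 12426 and 9000. Longer gaps between these shorter peaks were not counted, so the share of short gaps was not compared.

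Genes of moderate length could also lie wholly or largely under 1 or 2 long peaks. Among genes of at least 10 kb, the chemokine receptor genes CCR9 (17.1 kb) and CCR7 (11.7 kb) were covered over 100% of the span. BMF, which encodes a pro-apoptotic BH3-only protein, was covered over 95.8%, HEMK1 over 93.4%, and ZBTB7B, the CD4-lineage transcription factor gene, over 93.4%. CTSD (93.1%), the Src family kinase gene FGR (92.2%), RPS19 (92.1%), RAC2 (90.3%) and CHMP4B (89.9%) completed the first 10. Of the genes of 50 kb or more, 21 had at least 50% of the span under long peaks. FAM53B, CCDC12 (80.4%), CD247 (79.6%) and the anti-apoptotic gene BCL2L1 (78.0%) led these.

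Covered genes carried H3K4me3 more often than the others. H3K4me3 was called in the span or within 1 kb of it at 80.4% of covered genes (492 of 612, 77.0 to 83.5%) and 52.6% of genes not covered, against 53.4% of all protein-coding genes. The share was higher at covered genes in each class of gene length. Among genes of 50 to 200 kb the shares were 86.5% (82.0 to 90.2%) of covered genes and 59.9% (58.5 to 61.3%) of the others. Among genes of 200 kb or more they were 82.7% (74.0 to 89.4%) and 40.3% (37.6 to 43%). Under 10 kb they were 53.7% (37.4 to 69.3%) and 38.4% (37.1 to 39.6%), and the intervals overlapped. Where H3K4me3 was present, its bases were summed over all H3K4me3 peaks in the span and within 1 kb of it. The median sum was 2495 bp at covered genes of 50 to 200 kb and 1702 bp at the others of that length. At genes of 200 kb or more the medians were 2849 and 1657 bp, and at 10 to 50 kb 2089 and 1537 bp. Under 10 kb the order was the other way, with 1295.5 bp at covered genes and 1486 bp at the others.

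**Figure D2:**
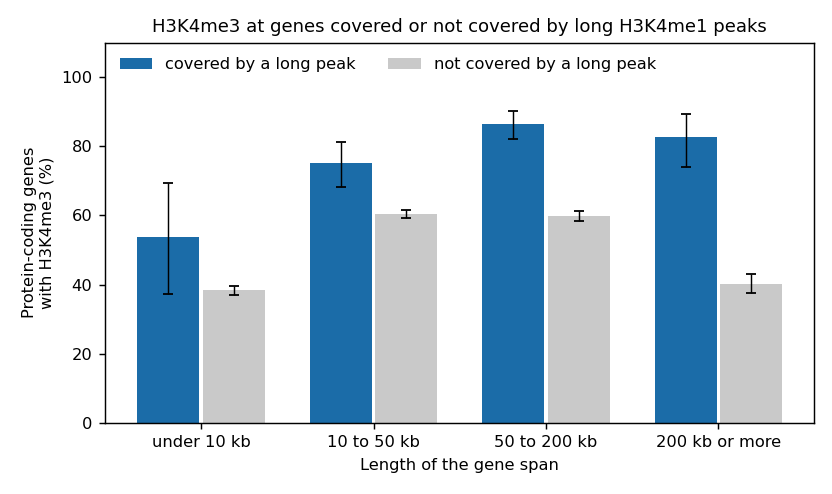
Percent of protein-coding genes with an H3K4me3 peak in the span or within 1 kb, by length of the gene span, for genes covered by a long H3K4me1 peak (blue, left bars) and genes not covered (grey, right bars). Error bars are exact 95% intervals for counting error, and the blue bars reach 86.5% in the class of 50 to 200 kb, against 59.9% for the grey bar.

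An H3K4me3 peak overlapped a long peak or lay within 2 kb of it in 33.7% of cases (352 of 1043, 30.9 to 36.7%), against 24.9% over all H3K4me1 peaks. Overlap by at least 1 bp held for 25.2% of long peaks, 15.4% of peaks of 5 to 10 kb and 9.01% of peaks under 5 kb, against 9.59% over all. A longer peak meets other peaks more often through its length alone. Per base the order was different: H3K4me3 covered 1.51% of the bases of long peaks, 1.44% in peaks of 5 to 10 kb and 2.08% in peaks under 5 kb. Per end, H3K4me3 lay at or within 2 kb outward of 11.8% of the ends of long peaks (10.4 to 13.3%). This was 11.0% (10.3 to 11.9%) for peaks of 5 to 10 kb and 12.2% (12 to 12.4%) for peaks under 5 kb, and the interval of the long peaks overlapped both of these. H3K4me3 peaks lay wholly inside 148 long peaks (14.2%), 182 of them in all, against 1.67% over all H3K4me1 peaks. Per Mb of peak the numbers were near each other. They were 10.7 in long peaks, 10.1 in peaks of 5 to 10 kb, 9.36 under 5 kb and 9.71 over all.

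H3K4me3 lay within 2 kb of 1 end in 230 long peaks (22.1%), of both ends in 8 (0.767%) and of neither in 805 (77.2%). Over all H3K4me1 peaks the shares were 22.7, 0.809 and 76.5%, near those of the long peaks. The 8 were assigned to CD247, HEMK1, GRAP2, LOC124900476, TBC1D10C, HDAC7, PPP2R5C and STK10. GRAP2 encodes an adaptor of the T cell receptor pathway, and its peak of 22.0 kb lay between H3K4me3 peaks 778 bp and 320 bp away. At 0.75 kb outside an end, 10.4% of the ends of long peaks were under H3K4me3, and at 2 kb inside 1.44% were. The profile had the same shape for shorter peaks, with 9.37% at 0.75 kb outside the ends of peaks of 5 to 10 kb and 10.3% for peaks under 5 kb.

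**Figure D3:**
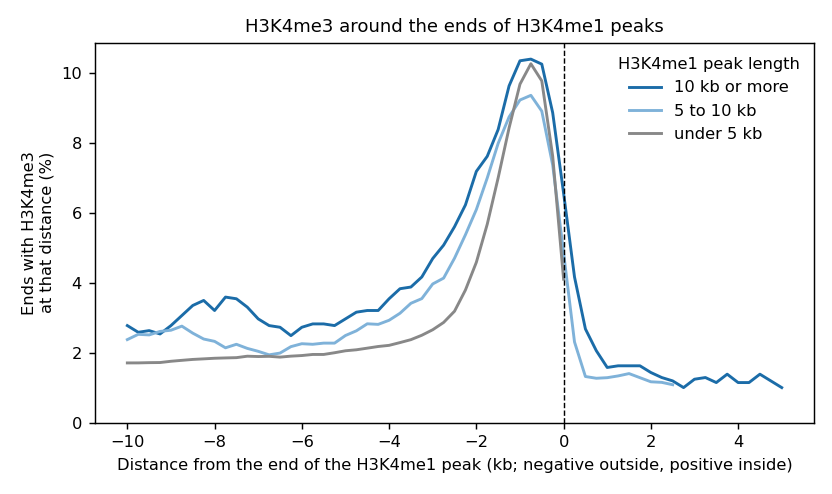
Percent of peak ends with an H3K4me3 peak at each distance from the end of an H3K4me1 peak, negative outside and positive inside, for H3K4me1 peaks of 10 kb or more, 5 to 10 kb and under 5 kb. In long peaks the share is 10.4% at 0.75 kb outside and 1.44% at 2 kb inside, and the 3 lines peak at the same place.

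Seen from H3K4me3, 414 of 11084 peaks (3.74%) overlapped a long peak or lay within 2 kb of one. The share was 4.62% of H3K4me3 peaks under 1 kb, 2.1% at 1 to 2 kb, 4.82% at 2 to 4 kb, 12.9% at 4 to 8 kb and 27.8% at 8 kb or more (10 of 36, 14.2 to 45.2%). Broad H3K4me3 peaks have a wider window of their own, which adds to this share. The H3K4me3 peaks beside long peaks had a median pileup of 13.37, and the others 13.47.

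Long peaks lay mostly downstream of the start of their gene. The direction of transcription and the start were known for 667 long peaks assigned to protein-coding genes, and 476 of these (71.4%) had H3K4me3 within 1 kb of the start. Of these 476, 383 lay downstream of the H3K4me3 peak (80.5%, 76.6 to 83.9%), 75 overlapped it and 18 lay upstream. The gap to the downstream peaks had a median of 38.7 kb (quartiles 13 and 102 kb). It was at most 2 kb in 40 cases and over 50 kb in 164. A gene leaves room for peaks assigned to it mainly on its downstream side, so the direction follows in part from the assignment. Along the gene, the midpoints of long peaks fell in 5 equal parts of the span, from start to end, in shares of 22.7, 20.9, 22.9, 19.3 and 14.3% (498 peaks). Other H3K4me1 peaks of the same genes gave 21.8, 21.6, 20.9, 18.6 and 17.2%.

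The maps of 6 genes show both arrangements. In UBASH3B the long peak began 2.88 kb from the first base of the gene, inside the edge of an H3K4me3 peak that ended at 3.25 kb, and went on to 110.4 kb. In FAM53B it began at 2.67 kb, with H3K4me3 ending at 2.91 kb. In IKZF1 the H3K4me3 peak ran from 0.660 to 9.49 kb and the long peak from 10.0 to 65.2 kb. In CD247 a second H3K4me3 peak, at 62.0 to 63.7 kb, stood over the gap between the long peaks of 56.7 and 13.3 kb. In CHST11 and MSI2 a row of long peaks ran along the gene, with shorter H3K4me1 peaks between some of them.

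**Figure D4:**
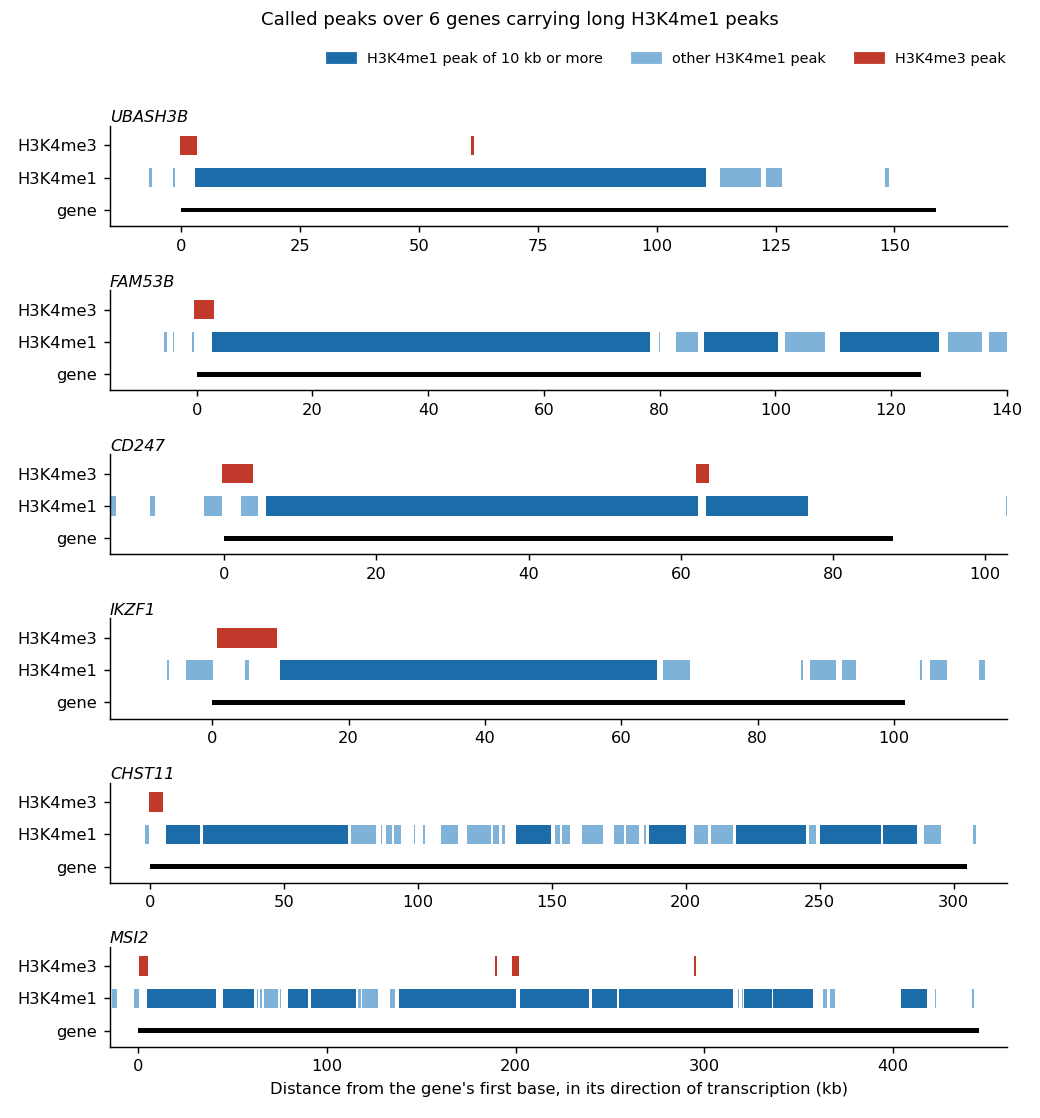
Called peaks over 6 genes by distance from the gene's first base in kb, with the gene in black, H3K4me1 peaks of 10 kb or more in dark blue, other H3K4me1 peaks in light blue and H3K4me3 peaks in red. Long peaks begin near the end of the first H3K4me3 peak in UBASH3B, FAM53B and IKZF1, and 11 of them lie in MSI2.

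The start sites gave a comparison in which upstream and downstream had the same room. Of 8201 starts with H3K4me3 and outside long peaks, 102 (1.24%, 1.02 to 1.51%) had a long peak beginning within 5 kb downstream and 45 (0.549%, 0.401 to 0.734%) one within 5 kb upstream. For genes of 50 kb or more the counts were 57 and 12 of 2684. Of the 102 downstream peaks, 92 had their midpoint in the gene itself, and of the 45 upstream peaks, 21 had it in another gene. Genes with such a peak downstream included RUNX3, TCF7 and NOTCH1, which act in T cell development, PLCG1, a T cell receptor effector, SMAD3, CCND3, SOCS3, BCL2 and BCL2L1. TCF7 had long peaks on both sides, of 21.8 kb from 4050 bp downstream and of 46.9 kb ending 1442 bp upstream. The upstream peak lay in VDAC1 and also covered part of the TCF7 span, since the TCF7 start used lay inside that span. Where a long peak began within 5 kb downstream in genes of 50 kb or more, the H3K4me3 peak at the start had a median length of 2473 bp, and elsewhere 1653 bp. Starts without H3K4me3 had a long peak within 5 kb downstream in 14 of 7572 cases (0.185%, 0.101 to 0.31%). Within 5 kb upstream of these starts there was one in 7 cases (0.0924%, 0.0372 to 0.19%), and the 2 intervals overlapped.

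Other gene starts lay inside long peaks, 21 with H3K4me3 within 1 kb and 47 without. They were 0.255% (0.158 to 0.39%) of all starts with H3K4me3 and 0.617% (0.454 to 0.819%) of all starts without H3K4me3. The starts with it included HES1, a NOTCH1 target, CCR9, the toll-like receptor gene TLR9, CSK, which encodes the kinase that restrains LCK, and the actin regulator gene PSTPIP1. The starts without it included IL10 and IL19 under 1 peak of 12.4 kb, CXCR6, the Notch ligand gene DLL4, FGR, ZBTB7B, RARA, ITGAE and the calcium-binding protein genes S100A3 and S100A5. Neighbouring S100A4 and S100A6 in the same peak of 19.3 kb had H3K4me3. CCR9, LZTFL1, FYCO1 and CXCR6 lie side by side on chromosome 3, where 4 long peaks measured 11.7, 45.3, 16.6 and 32.8 kb.

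The promoter windows of these groups differed in CpG content. The windows ran from 250 bases before to 50 after the RefSeq start. The median was 36 CpGs where H3K4me3 stood at the start and a long peak began within 5 kb downstream (quartiles 25.25 and 44, 102 genes), against 27 over all 8222 starts with H3K4me3. Starts inside a long peak had a median of 18 with H3K4me3 (21 genes) and 5 without (quartiles 4 and 10.5, 47 genes), against 9 over all 7620 starts without H3K4me3. The ETS core CCGGAA, searched on both strands, was in 16.7, 14.3 and 10.6% of the windows of these 3 groups, against 35.3% of all starts with H3K4me3 and 9.42% of those without. The RUNX core TGTGGT was in 11.8, 4.76 and 21.3%, against 8.81 and 13%. The TATA box letters TATAAA were in 5.88, 9.52 and 4.26%, against 4.66 and 15%. A match only says that the letters are present, and CCGGAA itself holds a CpG.

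Gene lists were compared with the 3.06% of all protein-coding genes covered and, since many of their genes are long, with the 6.27% of genes of 50 kb or more. The lists were drawn up with earlier results of these data known, so their counts are descriptions and not independent evidence. Of 40 genes of the T cell receptor and its proximal signalling, 16 were covered (40%, 24.9 to 56.7%), 10 of the 20 that reach 50 kb. PRKCH, UBASH3B, CD247 (70.0 kb), GRAP2 (55.0 kb) and the kinase gene FYN (29.7 kb) were among those with the most bases. Of 40 lymphoid transcription factor genes, 18 were covered (45%, 29.3 to 61.5%), 14 of the 29 long ones. HIVEP3, IKZF1, ETS1, BCL11B (45.0 kb in 3 peaks), RUNX1 (34.3 kb) and FLI1 (28.9 kb) led these, and GATA3 (12.5 kb) and LEF1 (10.1 kb) were among the others. H3K4me3 was present at 14 of the 16 and at 16 of the 18. Over all covered genes it was present at 80.4%, and at 86.5% of those of 50 to 200 kb.

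Among 38 genes of cytokine, kinase and survival signalling, 10 were covered (26.3%, 13.4 to 43.1%), 9 of the 25 that reach 50 kb. IGF1R, BCL2 (57.5 kb), BCL2L1 (46.4 kb), PIK3R1 (30.8 kb), RPTOR (14.7 kb) and PIK3CD (11.3 kb) had the most bases. Of 37 enzymes of glycan and proteoglycan synthesis, 6 were covered (16.2%, 6.19 to 32.0%), all of them among the 25 that reach 50 kb. These were CHST11, GALNT2, XYLT1, ST3GAL1 (34.0 kb), CHSY1 (32.7 kb) and HS6ST1 (13.2 kb). XYLT1, CHSY1 and CHST11 act on the same chondroitin sulfate chains.

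Fewer members of the remaining lists were covered. They were HDAC4, JARID2, HDAC7, TET3 and RAD21 of 47 chromatin and DNA methylation regulators (10.6%, 3.55 to 23.1%), and 3 of the 40 that reach 50 kb. Of 32 RNA-binding and splicing factors they were MSI2, CELF2, TNRC6B and KHDRBS1 (12.5%, 3.51 to 29.0%), and 3 of the 18 that reach 50 kb. Of 15 B-lineage markers, IGLL1 (6.34 kb) and CD79A (2.84 kb) were covered, neither with H3K4me3. The CD79A stretch was the end of the long peak over RPS19, its neighbour. Of 18 neuronal markers, NRXN3 had 12.2 kb, or 0.717% of its span. None of 16 myeloid markers (upper limit 20.6%), 15 erythroid and megakaryocyte markers (21.8%) or 27 housekeeping genes (12.8%) was covered. The housekeeping genes are mostly short, with a median span of 16.6 kb against 50.1 kb in the T cell receptor list.

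**Figure D5:**
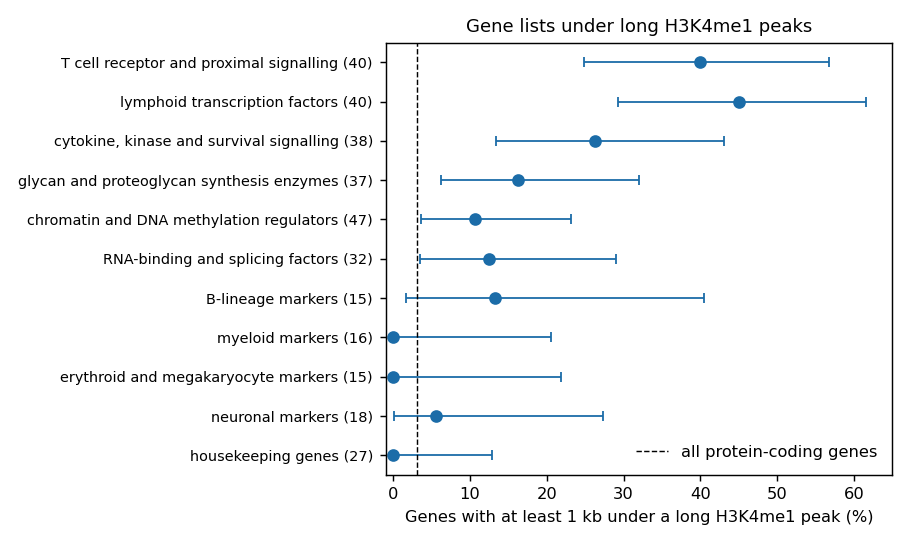
Percent of the genes of each list described here with at least 1 kb under a long H3K4me1 peak, with exact 95% intervals for counting error and the number of genes in brackets. The dashed line is the 3.06% of all protein-coding genes, and the T cell receptor and lymphoid transcription factor lists lie at 40% and 45%.

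Antigen receptor loci carried long peaks at some of their segments. At the T cell receptor beta locus 4 long peaks of 36.2, 22.98, 54.1 and 13.8 kb held 14 of 66 annotated segments, among them TRBC2 and TRBV30, which flank the known enhancer of this locus. At the alpha locus 1 peak of 21.1 kb held 1 segment, the constant region TRAC. At the immunoglobulin heavy chain locus 1 peak of 14.1 kb held IGHM, the 6 annotated joining segments and IGHD7-27, 8 of 92 segments. The delta, gamma, kappa and lambda loci had none. Peaks are placed on the reference genome, and the rearranged alleles of the line were not analysed here.

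Of 1913 annotated miRNA genes, 24 lay under long peaks, and RefSeq sequences were at hand for 20 hairpins. MIR342 lay in EVL under a peak of 20.3 kb on chromosome 14, and MIR200C and MIR141 beside PTPN6, the phosphatase gene of T cell receptor signalling, under a peak of 12.6 kb on chromosome 12. Their 3p arms are printed because these 3 are known regulators in blood or epithelial cells, with the seed, bases 2 to 8, in capitals. The seeds of miR-200c-3p and miR-141-3p differ, so the pair belongs to separate seed groups. No expression was measured.
hsa-miR-342-3p: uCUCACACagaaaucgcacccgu
hsa-miR-200c-3p: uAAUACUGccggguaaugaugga
hsa-miR-141-3p: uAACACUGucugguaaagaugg

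The long peaks were spread over all chromosomes but Y. Chromosomes 17 and 22 had the highest shares of their H3K4me1 peaks at 10 kb or more, 2.72% (84 peaks) and 2.70% (38 peaks), and X the lowest of the others, 0.493% (7 peaks). Pileup divided by fold was taken as a rough stand-in for the local background, which the caller did not report. This quotient had a median of 2.61 in long peaks, against 2.47 in peaks under 5 kb. By chromosome, the median in long peaks was highest on chromosome 19, at 3.75 (23 peaks). It was 3.41 on chromosome 8 (46 peaks) and 3.07 on chromosome 16 (50 peaks). Over all long peaks outside chromosome 8 it was 2.58. The part of this background in the length of the peaks was not tested. The share of peaks reaching 10 kb was 1.01% on chromosome 19, 1.51% on chromosome 8 and 1.69% outside chromosome 8.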

How the data were processed

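The authors ran MACS2 2.1.0.20150731 as a broad caller on each mark against the single input library, per the file headers. Their limits were q 0.1 (broad) and 0.05 (strong), and local background was taken over 1000 and 10000 bp, per the file headers. Positions refer to GRCh38, as the submitters' processing notes state. Values averaged over each peak were used as deposited: pileup (a coverage signal), fold (a ratio to local background) and −log10 q. Broad calling links enriched stretches: the smallest gap between neighbouring H3K4me1 peaks was 805 bp and the modelled fragment length 201 bp. A long peak may therefore hold short stretches without enrichment.

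Gene spans came from RefSeq GRCh38.p14 (20032 protein-coding and 18303 lncRNA genes). GTF2H2C_2, whose span is given on an alternate scaffold, was left out, and a few such spans may remain among genes not covered. Strand and start came from the RefSeq promoter windows, matched for 15842 protein-coding genes. Only 1 window was used per gene, so a start could lie inside the gene span and other starts were not counted. A peak was assigned to the protein-coding gene holding most of its bases, else an lncRNA gene, else the nearest gene. Overlaps were computed in Python 3.11.15 with pandas 2.3.3, numpy 2.4.6 and scipy 1.17.1, after the interval code was tested on simulated data. With 1 library per mark no test was made.

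The members and gene lists were chosen with earlier results of these data known. Text names the 25 longest peaks, the 15 genes with most covered bases, the 10 of at least 10 kb with the largest share covered, the extremes of pileup and H3K4me3, and up to 6 genes per list. Others were named after their values were seen. FUT11 and C1orf43 were not matched. Some genes and 1 list are not reported here.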

Additional observations from a re-analysis of the deposited data

How the results depend on the processing

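The length limit set the number of long peaks directly: 1647 at 8 kb and 386 at 15 kb, where 278 genes were covered. The midpoint lay in a protein-coding gene in 66.4% at 8 kb and 76.2% at 15 kb, and H3K4me3 lay within 2 kb in 38.6% at 15 kb. At a −log10 q of at least 3, 464 long peaks and 308 covered genes were left, by construction of the filter. The H3K4me3 share was 18.6% with the upper part of the H3K4me3 list by q, 25.2% with overlap of 1 bp and 37.4% with a gap of 5 kb, which follows from fewer peaks or another window. At 8 kb the list counts that moved by over 1.5 times were chromatin regulators (9) and neuronal markers (3). Joining peaks across gaps of up to 500 bp changed nothing, since no gap was that short. Joining across 1 kb, chosen after seeing the data, gave 1244 long peaks and 715 covered genes. Leaving out chromosome 8, also chosen after seeing the data, gave 997 and 588.

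No length or position was checked on a replicate, since each mark had 1 library. No paired analysis was possible because each group held 1 sample.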

Other observations

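Counted in 1-Mb bins, 551 bins held at least 1 long peak, 122 held at least 3 and 28 at least 5, and 481 of the 1043 peaks lay in bins with at least 3. The bin with MSI2 on chromosome 17 held 11 and the bin with HIVEP3 on chromosome 1 held 8, as did the bin with CLEC16A on chromosome 16 (151 kb). A bin on chromosome 11 held 4 (119 kb), of which 1 lay in ETS1 and 1 in FLI1, neighbouring ETS family genes. The others in that bin were assigned to LOC124902787 and LOC105369568.

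Noncoding genes were also covered: 283 of 18303 lncRNA genes (1.55%, 1.37 to 1.74%) had at least 1 kb under long peaks. CASC15 had 7 long peaks, and CARINH, which lies beside IRF1, had 60.1 kb in 2 peaks, or 92.4% of its span.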
